A study of Rattus norvegicus with 10 samples.

Results

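The genes of glycolysis, the pentose phosphate pathway, the tricarboxylic acid (TCA) cycle and itaconate synthesis were followed in splenic macrophages of rats with nephritis. They were chosen by gene symbol from a list of 48 names, which stand for 47 distinct genes because Acod1 was also listed under its older symbol Irg1. Of these, 46 had a row in the table of 9003 genes. They were 18 of 19 glycolysis genes, 6 of 6 pentose phosphate genes, 21 of 21 genes of the TCA group, which includes the pyruvate dehydrogenase complex, and Irg1. Idh3b was matched in another letter case, and Aldoc had no row. A mean of at least 5 CPM (the read count of a gene scaled by library size, here normalized by TMM, a scaling that trims extreme genes) was reached by 42 of the 46 genes. The other 4 were Hk2, Pfkm, Tpi1 and Ldhb.

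RNA sequencing was performed on 10 libraries of macrophages from the spleen of WKY/NCrj rats. The cells were sorted by flow cytometry, and the study labels those of all 4 groups M2 macrophages. Rats used for the nephritis model were female and 7 to 12 weeks old. The methods do not state sex and age for the control rats separately. Control cells (n = 2) came from rats in the physiological condition. GN cells (n = 2) came from rats with glomerulonephritis, caused by TF78, a mouse antibody against the glomerular basement membrane, and without adipose-derived mesenchymal stem cells (ASCs). EV+ cells (n = 3) and EV- cells (n = 3) both came from nephritic rats that had received human ASCs intravenously, labelled with the membrane dye DiD. EV+ macrophages carried the dye, taken as a mark of transferred extracellular vesicles, and EV- macrophages did not. The ASCs were therefore shared by EV+ and EV- cells, nephritis by GN, EV+ and EV- cells, and the DiD gate was the only labelled difference between EV+ and EV- cells.

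Recovered reads on genes ranged from 19270515 to 26617093 per library. The macrophage genes Cd68 (1163 to 1466 CPM), Csf1r (5800 to 8155 CPM), Adgre1 (1025 to 1491 CPM) and Lyz2 (15325 to 20176 CPM) were present in every library. In contrast, Cd163 and Mrc1, which are widely used markers of M2 macrophages, were at or near 0, with a highest value of 1.81 CPM for each. These 2 transcripts, taken alone, therefore do not bear out the M2 label of the sorted cells. The study gave this label by a flow cytometry panel. By its PCR, sorted M2 cells had more IL-10 and less IL-6 and CCR2 than sorted M1 cells. The summed level of the 10 measured macrophage markers, of 14 listed, was 24783 to 25028 CPM in control and 28805 to 31008 CPM in the 8 nephritis libraries. Most of this sum was Lyz2. Of the 10 markers, 3 were lower than control in GN, 4 in EV+ and 4 in EV-, among them Hmox1 in each. The 5 measured neutrophil markers of 8 listed summed to 549 to 555 CPM in control and 609 to 743 CPM in the nephritis libraries. Csf3r made up nearly all of this sum (528 and 529 CPM in control, 586 to 723 CPM in nephritis), whereas S100a8 (1.34 to 3.39 CPM) and S100a9 (9.34 to 19.0 CPM) overlapped between control and nephritis. Hbb, the only measured erythroid marker of 8 listed, read at most 1.44 CPM in control and 2.68 to 5.25 CPM in nephritis. The 4 measured B cell markers of 8 listed summed to 319 to 461 CPM, with overlapping groups, and most of the sum was Cd22 (275 to 389 CPM). Cd79b read 87.0 and 109 CPM in control and 42.1 to 73.0 CPM in the nephritis libraries and was called lower in GN (log2 -0.85, limma adjusted p = 0.0331), and Ms4a1 read 1.52 to 1.72 CPM in EV+ and at most 0.778 CPM elsewhere. The 10 measured natural killer and T cell markers of 12 listed summed to 17.6 to 35.6 CPM in control, GN and EV+ and to 46.3 to 626 CPM in EV-, with the highest sum in EV- replicate 1. None of these lists was at 0 in all libraries. The macrophage sum, which is mostly Lyz2, Csf3r, Hbb and, in the opposite direction, Cd79b thus moved with nephritis. The macrophage markers did not all move together. The natural killer and T cell sum moved with the EV- gate, and the part of these markers in the results was not tested. In bulk libraries, fewer cells of a type and less RNA per cell cannot be told apart.

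Glycolysis converts glucose to pyruvate and lactate in the cytosol, and the pentose phosphate pathway branches off after the hexokinase step to make NADPH and ribose phosphate. Pyruvate enters the mitochondria through the pyruvate dehydrogenase complex and is oxidized in the TCA cycle. Macrophages shift the use of these pathways when they are activated, and they make itaconate from the TCA intermediate cis-aconitate through the enzyme that Acod1 encodes. Itaconate is known to inhibit succinate dehydrogenase and to restrain inflammatory signalling.

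Across the 10 libraries, levels of most of these genes lay close together. Among the 42 genes with a mean of at least 5 CPM, the highest library exceeded the lowest by a median of 1.28-fold, against 1.41-fold for all genes at that level. The ratio was under 1.5 for 36 of the 42 genes (85.7%), against 63.1% of all genes at that level. Of the 42 genes, 24 had a mean of at least 100 CPM. The 2 sets were not matched for level beyond the limit of 5 CPM, and the part of level in this difference was not tested. Irg1 had the widest spread of the 42, at 2.36-fold, whereas Mdh2 had a ratio of 1.09.

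Each pair of groups was compared by limma on log2(CPM + 1) over all 9003 genes, and a gene was called when its Benjamini-Hochberg adjusted p was under 0.1. All fold changes are on this scale, which understates the change of low genes. In GN against control, 1 of the 46 enzyme genes was called, where 1.75% of all genes were called. In EV+ against control 4 genes were called, where 3.63% of all genes were called, and in EV- against control 3 genes were called, where 2.84% of all genes were called. These 3 comparisons share the same 2 control libraries. The called genes were Irg1, Eno1, Hk3 and Pfkp, and the test across the 4 groups called Irg1, Eno1 and Pfkp, where 2.57% of all genes were called. With the replicate number as a block, the test across the 4 groups called Irg1, Eno1 and Hk3. This block also joins same-numbered control and GN libraries, which were not taken as pairs, so no conclusion is drawn from its calls. The share of all genes called in this fit is not given here. No enzyme gene was called between any 2 of the nephritis groups.

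The promoters of these 4 genes are shown because their transcripts differed from control. Each is the RefSeq window from 250 bases before to 50 bases after an annotated start, on the + strand of build GRCr8. The expression values were made on another build, rn6. Capitals mark ACGTG, the core of the hypoxia response element, and GCGTG, a variant of it, searched on both strands (CACGT and CACGC on the other strand). Overlapping matches were counted once for each strand.
Acod1 (Irg1), chr15:86286289-86286588: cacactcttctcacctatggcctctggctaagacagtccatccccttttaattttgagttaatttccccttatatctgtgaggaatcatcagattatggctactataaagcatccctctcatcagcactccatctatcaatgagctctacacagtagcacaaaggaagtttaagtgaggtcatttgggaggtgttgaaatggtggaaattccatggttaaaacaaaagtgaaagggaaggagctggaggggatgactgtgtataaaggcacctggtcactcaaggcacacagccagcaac
Eno1, first start, chr5:166002617-166002916: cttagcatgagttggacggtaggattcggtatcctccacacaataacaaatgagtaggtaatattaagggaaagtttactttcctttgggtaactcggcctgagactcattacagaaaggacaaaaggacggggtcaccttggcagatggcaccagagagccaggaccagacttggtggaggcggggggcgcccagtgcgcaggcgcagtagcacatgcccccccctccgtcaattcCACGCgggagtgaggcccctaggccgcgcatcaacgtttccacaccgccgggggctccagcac
Eno1, second start, chr5:166003111-166003410: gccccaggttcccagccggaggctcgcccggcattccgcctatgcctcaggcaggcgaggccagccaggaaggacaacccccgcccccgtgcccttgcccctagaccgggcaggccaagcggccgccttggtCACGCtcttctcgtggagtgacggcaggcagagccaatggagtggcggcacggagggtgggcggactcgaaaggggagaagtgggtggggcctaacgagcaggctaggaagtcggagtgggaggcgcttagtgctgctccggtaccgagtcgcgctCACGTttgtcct
Hk3, chr17:9604781-9605080: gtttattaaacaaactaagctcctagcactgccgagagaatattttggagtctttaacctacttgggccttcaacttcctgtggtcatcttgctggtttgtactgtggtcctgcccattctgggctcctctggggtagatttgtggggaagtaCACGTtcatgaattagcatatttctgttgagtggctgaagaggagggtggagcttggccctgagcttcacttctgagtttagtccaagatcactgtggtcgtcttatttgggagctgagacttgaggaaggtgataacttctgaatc
Pfkp, chr17:68639563-68639862: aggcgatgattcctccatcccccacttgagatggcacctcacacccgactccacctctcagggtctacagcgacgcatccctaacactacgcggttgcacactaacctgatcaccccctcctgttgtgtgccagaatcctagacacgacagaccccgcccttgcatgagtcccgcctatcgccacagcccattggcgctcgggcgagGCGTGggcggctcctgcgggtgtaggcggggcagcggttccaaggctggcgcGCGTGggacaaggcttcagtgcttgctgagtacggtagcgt

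The Acod1 window held neither motif. ACGTG was present once in the second Eno1 window and once in the Hk3 window, and the Pfkp window held GCGTG at 2 positions but no ACGTG. Of the 46 genes, 43 had a window, and Idh3a, Pgk1 and Pgls had none. ACGTG was found in 16 of their 47 windows (34.0%), compared with 27.0% of the 7815 windows matched to genes of the table and 19.3% of all 33469 windows. With GCGTG counted as well, the order turned, with a match in 55.3% of the 47 windows and 63.2% of those of the table. CACGTG, the E-box, was found in 8.51% of the 47 windows and in 9.80% of those of the table, and overlaps ACGTG by construction. The median GC content was 61.3% in the windows of the enzyme genes and 60.7% in those of the table.

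Irg1, the itaconate synthase gene, showed the clearest difference. It read 48.7 and 45.2 CPM in control (47.0 ± 2.49, SD, n = 2) and 105 and 89.9 CPM in GN (97.3 ± 10.5, n = 2). EV+ libraries read 107, 95.1 and 93.0 CPM (98.2 ± 7.35, n = 3) and EV- libraries 94.4, 62.5 and 79.1 CPM (78.7 ± 16.0, n = 3). All 8 nephritis libraries lay above both control libraries, and EV- replicate 2 was the lowest of the 8.

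Irg1 rose 2.05-fold in GN against control (log2 1.03 ± 0.15, SE, limma adjusted p = 0.00543). In EV+ it was 2.07-fold above control (log2 1.05 ± 0.14, limma adjusted p = 0.000906), and in EV- 1.64-fold above control (log2 0.71 ± 0.14, limma adjusted p = 0.0204). EV- was 0.32 below GN on the log2 scale (95% interval -0.62 to -0.02, limma adjusted p = 0.6), and EV+ was 0.33 above EV- (0.06 to 0.60, limma adjusted p = 1), so neither difference passed the test. Without GN replicate 1, the GN difference was log2 0.92 with a limma adjusted p of 0.101. Without control replicate 2, the EV- difference was log2 0.66 with a limma adjusted p of 0.199.

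Eno1 encodes enolase, which makes phosphoenolpyruvate in the lower part of glycolysis. It read 423 and 408 CPM in control, 513 and 510 in GN, 606, 506 and 571 in EV+, and 560, 519 and 518 in EV-. Both control libraries lay below all 8 nephritis libraries. Eno1 was 1.35-fold above control in EV+ (log2 0.43 ± 0.08, limma adjusted p = 0.0116) and 1.28-fold above control in EV- (log2 0.36 ± 0.08, limma adjusted p = 0.0422). In GN the difference was 1.23-fold (log2 0.30 ± 0.09) and did not pass the test (limma adjusted p = 0.163). Without control replicate 2, neither the EV+ nor the EV- difference passed (limma adjusted p = 0.141 and 0.299). When control replicate 1 was left out the EV- difference also failed (0.164), as it did when EV- replicate 1 was left out (0.132), in which natural killer and T cell markers were highest. RefSeq for GRCr8 names 30 pseudogene loci after Eno1, with which its reads may be shared, and their part was not tested.

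Hk3, one of 3 measured hexokinases, which trap glucose as glucose 6-phosphate, read 10.5 and 11.1 CPM in control, 19.9 and 17.0 in GN, 20.6, 16.3 and 17.0 in EV+, and 17.5, 15.8 and 12.2 in EV-. Control libraries were again below all nephritis libraries. The difference was log2 0.68 ± 0.17 in EV+ (limma adjusted p = 0.0608), which passed the test, and log2 0.72 ± 0.19 in GN (limma adjusted p = 0.105) and 0.44 ± 0.17 in EV- (limma adjusted p = 0.276), which did not. The EV+ call was lost without either control replicate or without EV+ replicate 1 or 3, with limma adjusted p between 0.130 and 0.249.

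Pfkp, the platelet-type phosphofructokinase, was the only called gene with lower values in nephritis. It read 58.6 and 63.8 CPM in control, 50.6 and 46.3 in GN, 47.2, 45.5 and 49.0 in EV+, and 43.5, 43.7 and 43.0 in EV-. All nephritis libraries lay below control, and the 3 EV- libraries lay below all others. Pfkp fell by 0.49 on the log2 scale in EV- (SE 0.10, limma adjusted p = 0.0214) and fell by 0.37 in EV+ (SE 0.10, limma adjusted p = 0.0713). In GN the difference was -0.33 ± 0.11 (limma adjusted p = 0.219). The EV+ call was lost when any control, GN or EV+ library was left out, with limma adjusted p between 0.1003 and 0.467. The EV- call was lost without control replicate 2 (limma adjusted p = 0.229).

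**Figure D1:**
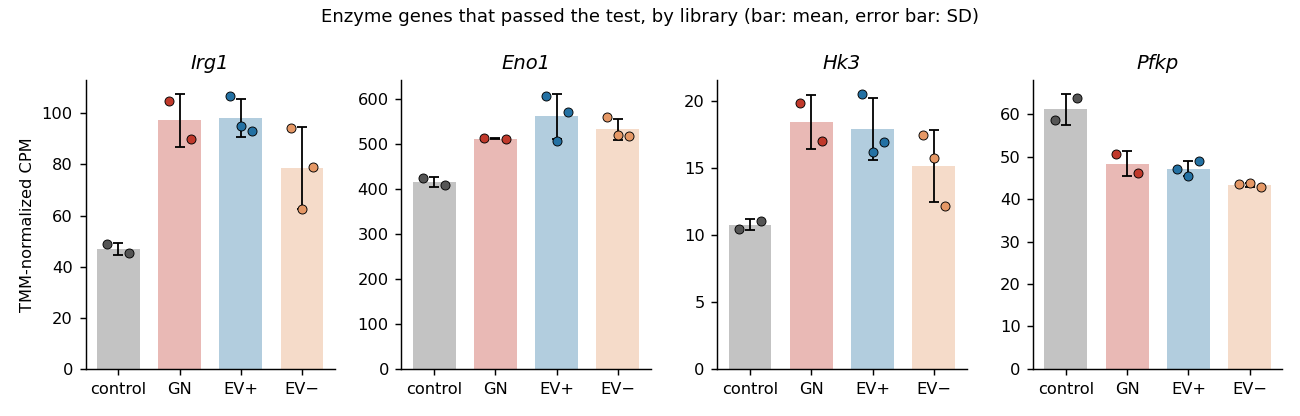
TMM-normalized CPM of Irg1, Eno1, Hk3 and Pfkp in control, GN, EV+ and EV- libraries; points are libraries, bars are means and error bars are SD (n = 2, 2, 3 and 3). Control points lie below all nephritis points for Irg1, Eno1 and Hk3 and above them for Pfkp.

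The other steps of glycolysis differed less. Gpi, the isomerase that follows hexokinase, ranged from 873 to 1038 CPM, and Aldoa, the aldolase with the highest CPM of the list, from 2003 to 2241 CPM. Aldoa read 2113 and 2209 CPM in control, 2211 and 2168 in GN, 2241, 2003 and 2210 in EV+, and 2110, 2080 and 2172 in EV-, and all groups overlapped. Pkm, the pyruvate kinase gene, ranged from 1523 to 1725 CPM and also overlapped between groups. In GN against control the log2 differences were 0.02 (95% interval -0.15 to 0.18) for Aldoa and -0.02 (-0.18 to 0.15) for Pkm.

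Gapdh, Pgk1 and Pgam1 encode the steps between aldolase and enolase, and their control libraries lay below all nephritis libraries. Gapdh read 1753 and 1765 CPM in control and 1780 to 2274 CPM in the nephritis libraries. Pgk1 read 189 and 201 CPM in control and 211 to 275 CPM in nephritis, and Pgam1 427 and 445 against 460 to 556 CPM. None passed the test in the comparison of EV+ with control, where the log2 differences were 0.21, 0.34 and 0.23 (limma adjusted p = 0.286, 0.106 and 0.238). In GN against control they were 0.15, 0.17 and 0.18 (limma adjusted p = 0.670, 0.643 and 0.580).

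The lactate dehydrogenase gene Ldha read 1925 and 2008 CPM in control, 2066 and 2105 in GN, 2336, 2026 and 2235 in EV+, and 2201, 2015 and 2138 in EV-. Its control libraries were the lowest, by a narrow margin, and no comparison passed the test (largest log2 difference 0.16 in EV+ against control, limma adjusted p = 0.343). RefSeq names 79 pseudogene loci after Gapdh, 30 after Ldha, 19 after Pkm, 13 after Pgam1, 9 after Aldoa, 8 after Pgk1 and 3 after Tpi1, so levels of these genes are uncertain to the extent that reads were shared with such copies.

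Control libraries below all nephritis libraries were found for 13 of the 46 genes, against 5.89% of all genes. These were Hk3, Pfkl, Gapdh, Pgk1, Pgam1, Eno1, Ldha, Pgd, Rpia, Taldo1, Pdha1, Suclg2 and Irg1. The opposite order was found for Pfkp alone, against 6.73% of all genes. Among genes with a mean of at least 5 CPM, which include all 14 genes of this pattern, the background shares were 6.34% and 7.51%. The sets were not matched for level beyond this limit, and the part of level was not tested. Some margins between the higher control and lowest nephritis library were narrow, as for Gapdh (1765 and 1780 CPM) and Pgd (447 and 449 CPM). Those of Rpia (87.8 and 88.3 CPM) and Ldha (2008 and 2015 CPM) were narrow too, whereas that of Irg1 was wider (48.7 and 62.5 CPM). The count of 13 was also 13 with RLE size factors and 16 with scaling by library total, where the background was 5.78% and 8.33%. Leaving out 1 library at a time gave 13 to 19 genes. This count could not fall below 13, because the order is easier to meet with fewer libraries. The share of all genes that meet the relaxed order is not given here. Because all these genes were compared with the same 2 control libraries, they are not independent of each other.

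**Figure D2:**
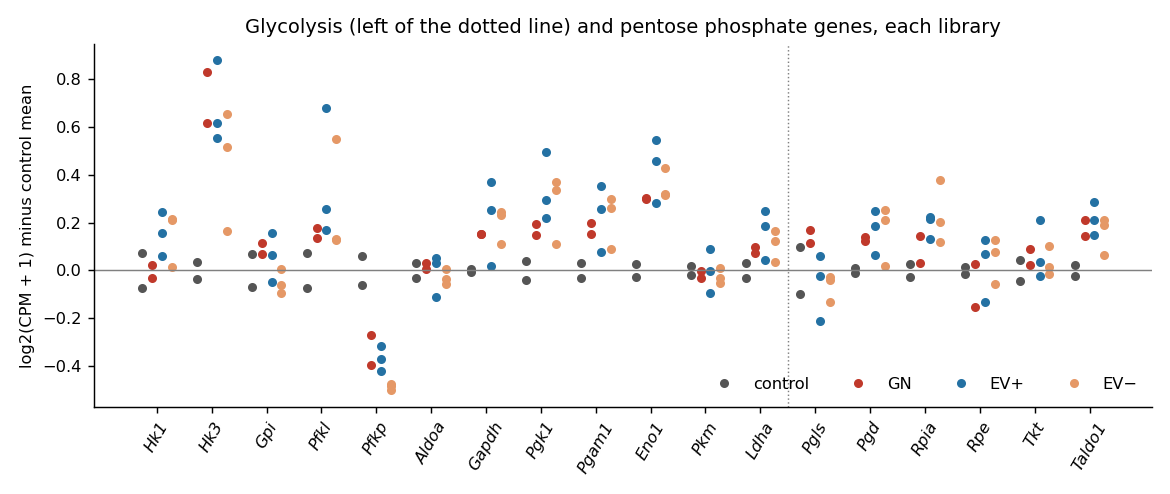
Log2(CPM + 1) of each library minus the control mean for 12 glycolysis genes in pathway order and the 6 pentose phosphate genes; each point is 1 library, coloured by group. Hk3, Eno1, Pgk1, Pgam1 and Gapdh lie above the control points in all nephritis libraries, Pfkp lies below them, and Aldoa and Pkm stay around 0.

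The regulatory and minor isoenzymes of glycolysis were less uniform. Pfkfb4, which sets fructose 2,6-bisphosphate, the activator of phosphofructokinase, read 109 and 112 CPM in control, 103 and 91.2 in GN, 107, 121 and 111 in EV+, and 115, 126 and 106 in EV-. Both GN libraries were lower than all other libraries. The differences from GN were log2 0.22 in EV+ (95% interval 0.01 to 0.42, limma adjusted p = 0.686) and 0.25 in EV- (0.05 to 0.46, limma adjusted p = 0.513), which did not pass the test. Pfkfb3, a related enzyme, ranged from 3.88 to 7.78 CPM and was 0.21 lower in EV+ than in EV- on the log2 scale (95% interval -0.61 to 0.19), with overlapping groups.

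Hk1 read 142 and 128 CPM in control, 137 and 132 in GN, 141, 160 and 151 in EV+, and 157, 157 and 137 in EV-. Hk2 was scarce, at 0.0394 to 2.11 CPM, and GN replicate 1 held 1 read, under the limit of 3 reads taken as detection. As a share of the summed CPM of the 3 hexokinase genes, which was not divided by transcript length, Hk3 took 6.78% and 7.86% in control and 12.6% and 11.3% in GN. Its share was 12.6%, 9.18% and 10.1% in EV+ and 9.94%, 9.10% and 8.09% in EV-. The share was 1.57 percentage points higher in EV+ than in EV- (exact permutation test, two-sided, p = 0.200, where the smallest possible p is 0.1). It was higher in EV+ in 3 of 3 same-numbered pairs (two-sided exact sign-flip permutation, p = 0.25, and 3 pairs cannot give a lower p). The difference was 0.587 points without EV+ replicate 1 and 1.09 points without EV- replicate 3.

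Pfkp took 86.8% and 86.3% of the summed CPM of the 3 phosphofructokinase genes in control and 73.8% to 83.2% in the nephritis libraries. Pfkl read 8.05 and 8.99 CPM in control and 9.38 to 14.2 CPM in nephritis, while Pfkm was scarce and erratic, at 0.0842 to 2.88 CPM. EV+ and EV- differed by 1.41 percentage points in the Pfkp share (exact permutation test, two-sided, p = 0.6) and by -1.64 points in the Pfkm share (exact permutation test, two-sided, p = 0.200). The Pfkm share was lower in EV+ in 3 of 3 pairs (exact sign-flip permutation test, two-sided, p = 0.25), and without EV- replicate 1 the difference was -0.618 points. Ldhb, the second lactate dehydrogenase gene, stood at 0.195 to 1.12 CPM beside Ldha, and Tpi1, the triose phosphate isomerase, at 2.09 to 3.50 CPM (41 to 88 reads).

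The pentose phosphate genes were steady. Tkt, the transketolase and the gene with the highest CPM of this list, read 963 and 1025 CPM in control, 1056 and 1009 in GN, 1149, 979 and 1017 in EV+, and 1067, 1003 and 985 in EV-. Taldo1, the transaldolase, read 641 and 662 CPM in control and 681 to 795 CPM in nephritis, with log2 differences of 0.18 in GN, 0.22 in EV+ and 0.15 in EV- (limma adjusted p = 0.440, 0.168 and 0.380). Pgd, of the oxidative branch, read 447 and 439 CPM in control and 449 to 529 CPM in nephritis, and Rpia, which makes ribose 5-phosphate, 84.8 and 87.8 against 88.3 to 112 CPM. Pgls and Rpe overlapped between control and nephritis. None of the 6 genes passed the test in any comparison.

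None of the 21 genes of the TCA group passed the test in any comparison. Mdh2, the mitochondrial malate dehydrogenase, had the highest CPM of the group and read 328 and 329 CPM in control, 339 and 336 in GN, 346, 319 and 341 in EV+, and 341, 324 and 331 in EV-. Citrate synthase (Cs) ranged from 166 to 192 CPM and Ogdh, of the 2-oxoglutarate dehydrogenase complex, from 248 to 318 CPM. In GN against control the differences of the group ran from -0.04 to 0.21 on the log2 scale. Pdha1, the catalytic subunit of the pyruvate dehydrogenase complex, and Suclg2, of succinyl-CoA synthetase, were the 2 genes of the group with control below all nephritis libraries. Pdha1 read 81.5 and 83.4 CPM in control and 88.6 to 105 CPM in nephritis (log2 0.26 in EV- against control, limma adjusted p = 0.200).

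Isocitrate dehydrogenase genes gave the largest differences of the group from GN. Idh1, the cytosolic NADP-dependent form, read 82.4 and 78.0 CPM in control, 81.2 and 74.5 in GN, 72.0, 109 and 113 in EV+, and 82.7, 108 and 107 in EV-. EV+ replicate 1 lay below the control and GN libraries and EV- replicate 1 just above them, and the other 4 EV libraries lay higher. The log2 differences from GN were 0.30 in EV+ (limma adjusted p = 0.795) and 0.34 in EV- (limma adjusted p = 0.658). Idh3a, a subunit of the mitochondrial NAD-dependent form, read 42.9 and 53.7 CPM in control, 54.1 and 54.0 in GN, 49.1, 43.9 and 46.0 in EV+, and 53.2, 52.3 and 50.9 in EV-. EV+ libraries lay below all EV- and GN libraries, by 0.22 on the log2 scale against GN (limma adjusted p = 0.735) and 0.17 against EV- (limma adjusted p = 1).

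Aco1, the cytosolic aconitase, ranged from 60.4 to 74.1 CPM. The succinate dehydrogenase subunits, whose enzyme itaconate inhibits, ranged from 192 to 260 CPM for Sdha, 147 to 177 for Sdhb, 157 to 188 for Sdhc and 209 to 253 for Sdhd. None of these 5 genes passed the test in any comparison. Acly, which cleaves exported citrate in the cytosol, ranged from 136 to 208 CPM and was 0.29 higher in EV+ than in control on the log2 scale (limma adjusted p = 0.303).

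As lists, the medians of the log2 differences lay slightly above 0 in all comparisons with control. The glycolysis median was 0.09 in GN, 0.16 in EV+ and 0.12 in EV-. The pentose phosphate medians were 0.11, 0.12 and 0.10, and the TCA medians 0.09, 0.07 and 0.09, while the median of all genes was between -0.000138 and 0.00701. With 1 library left out, the glycolysis medians ranged from 0.0361 to 0.109 in GN, 0.0785 to 0.164 in EV+ and 0.0697 to 0.188 in EV-. In GN against control, 36 of the 46 genes were higher, against 49.9% of all genes. At an unadjusted p under 0.05 there were 5 of 46 genes in GN, 10 in EV+ and 10 in EV- (10.9%, 21.7% and 21.7%), against 10.4%, 15.0% and 13.1% of all genes.

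**Figure D3:**
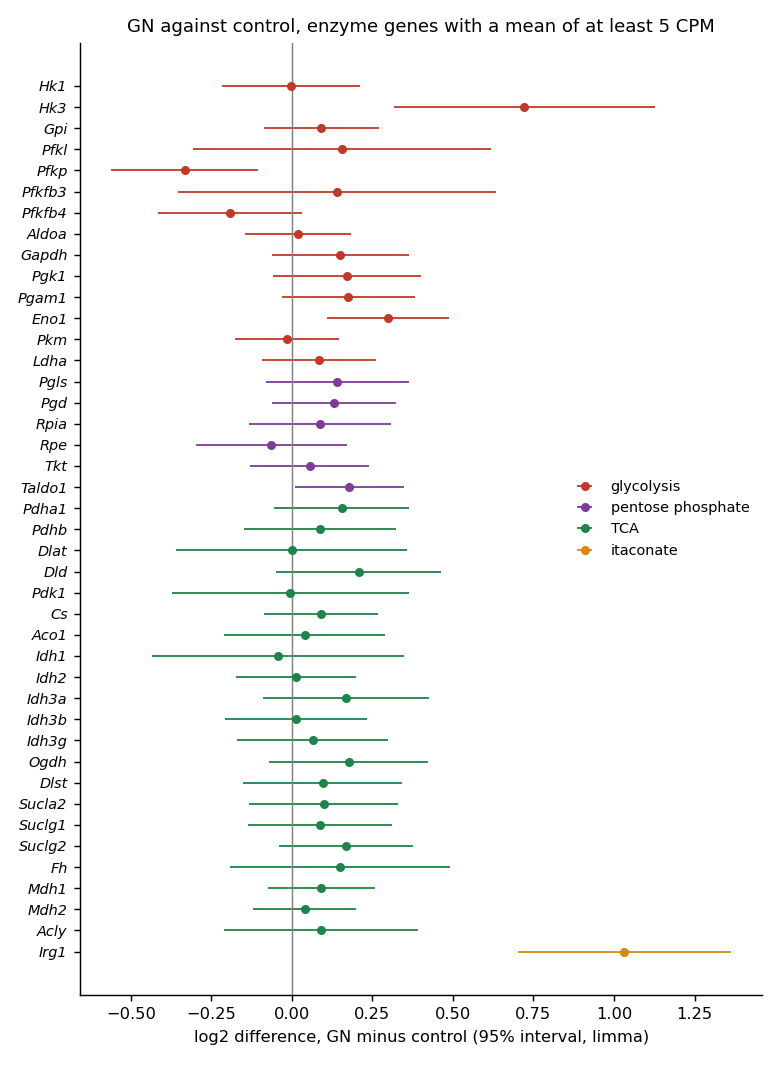
Log2 difference between GN and control for the 42 enzyme genes with a mean of at least 5 CPM; points are limma estimates and lines 95% intervals, coloured by pathway. Irg1 stands at 1.03 and Hk3 at 0.72, and the TCA genes lie between -0.04 and 0.21.

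Next, EV+ and EV- macrophages were compared, which asks what accompanied vesicle transfer among cells of rats given ASCs. None of the 46 genes was called, where 0.0222% of all genes were called, and 1 gene, Irg1 (2.17%), had an unadjusted p under 0.05, against 4.57% of all genes. edgeR's quasi-likelihood test and DESeq2 on the recovered reads also called none of them. With EV- replicate 1, the library of high natural killer and T cell markers, left out, none was called either. The 95% interval lay within ±0.5 on the log2 scale for 40 of the 46 genes, against 5984 of all 9003 genes. It lay within ±1 for 45, against 8499 of all genes. Its median half-width was 0.19 for the 46 genes and 0.28 for all genes. At a mean of at least 5 CPM, 39 of 42 enzyme genes and 5919 of all 7193 genes lay within ±0.5. The part of level in this was not tested. The medians of the log2 differences were 0.02 for glycolysis, 0.01 for the pentose phosphate pathway and 0.01 for the TCA group. All EV+ libraries lay above all EV- libraries for 1 gene, Pfkp, where 4.25% of all genes had this order, and below them for 2 genes, Idh3a and Suclg1, where 4.65% of all genes did, shares near the background. With the replicate number as a block, again none was called. For Irg1 the limma adjusted p was 0.748 in the blocked fit of all libraries and 0.241 in that of the EV libraries alone, which called 49 of all genes.

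**Figure D4:**
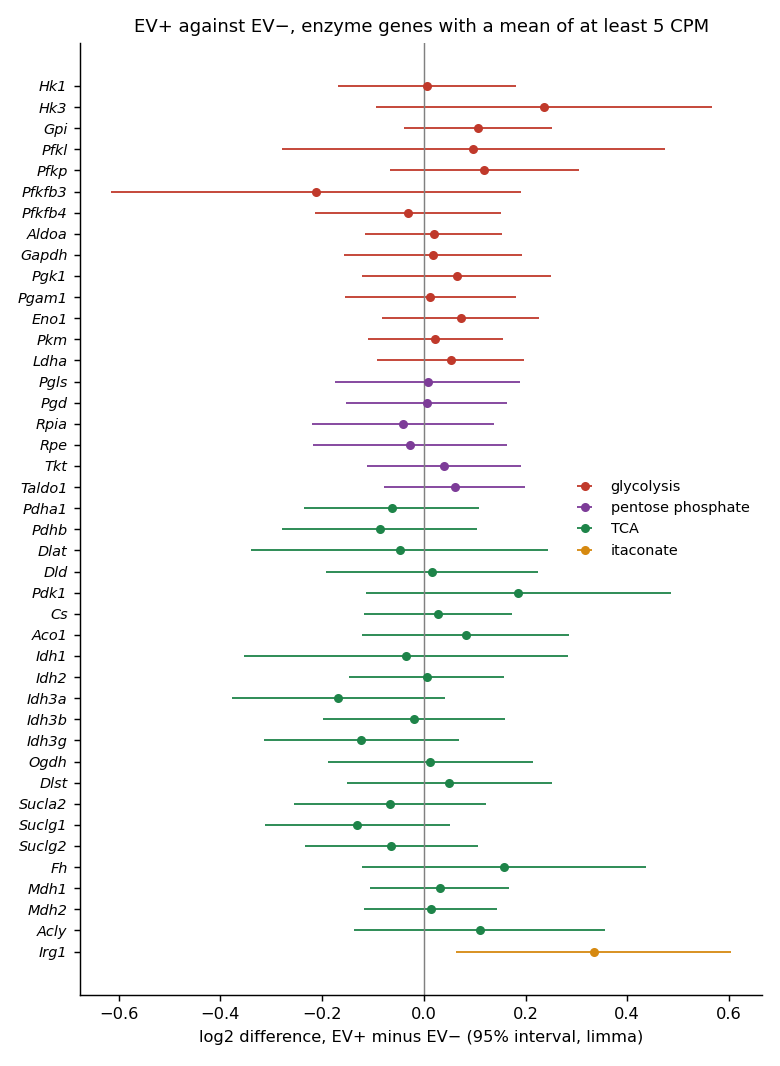
Log2 difference between EV+ and EV- for the 42 enzyme genes with a mean of at least 5 CPM; points are limma estimates and lines 95% intervals, coloured by pathway. The estimates lie around 0, Irg1 at 0.33 being the highest, and most intervals lie within ±0.5.

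The EV groups were also compared with GN. GN cells came from rats without ASCs and were not divided by DiD, so ASC treatment and the DiD gate cannot be told apart in these comparisons. The natural killer and T cell marker sum also differed, at 17.6 to 28.0 CPM in GN and 46.3 to 626 CPM in EV-. In EV+ against GN none of the 46 genes was called, where 0.122% of all genes were called, and in EV- against GN none was called, where 0.378% of all genes were called. At an unadjusted p under 0.05 there were 1 and 4 genes (2.17% and 8.70%), against 7.13% and 7.85% of all genes. edgeR's quasi-likelihood test and DESeq2 also called none in either comparison. The 95% interval lay within ±0.5 on the log2 scale for 39 of the 46 genes in EV+ and for 36 in EV-. Over all 9003 genes these counts were 5122 and 5172. The glycolysis medians were 0.06 and 0.04, and the TCA medians -0.02 and 0.00389. Both comparisons share the 2 GN libraries.

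The libraries with the highest and the lowest level of each gene were counted. EV+ replicate 1 was the highest library for 10 of the 14 glycolysis genes with a mean of at least 5 CPM, and the 2 control libraries were the lowest for 9 of them. Among the 21 TCA genes, no library was the highest for more than 5, and the 2 control libraries were the lowest for 10. The matching shares over all genes are not given here, so these counts do not set glycolysis apart from other genes. Leaving out EV+ replicate 1 gave 3 called genes in EV+ against control (Irg1, Eno1 and Idh1), and leaving out EV+ replicate 2, which was the lowest EV+ library for most of the triose phosphate steps, gave 6 (Irg1, Eno1, Hk3, Gapdh, Pgam1 and Pgk1). The shares of all genes called in these fits are not given here.

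Other genes of the same pathways were read beside these. Of 42 further enzymes and carriers with a row, 1 was called in GN against control, where 1.75% of all genes were called. In EV+ against control 1 was called, where 3.63% of all genes were called. Both times it was Slc2a6, a hexose transporter, which the test across the 4 groups also called. Slc2a6 read 205 and 187 CPM in control, 287 and 255 in GN, 282, 244 and 244 in EV+, and 223, 203 and 215 in EV-. It rose in GN (log2 0.46 ± 0.10, limma adjusted p = 0.0368) and in EV+ (0.38 ± 0.09, limma adjusted p = 0.0392), and the difference of EV- from control was 0.12 ± 0.09 (limma adjusted p = 0.630). EV+ libraries lay above all EV- libraries, a difference of 0.26 that did not pass the test (limma adjusted p = 0.934). Slc2a1, the main glucose transporter of many cells, ranged from 65.5 to 94.6 CPM and was not called.

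Regulators of these pathways were also read. None of 12 was called in any comparison, including Hif1a, the oxygen-regulated subunit of hypoxia-inducible factor, at 105 to 140 CPM, and Myc at 1.62 to 3.97 CPM. Of 11 further hypoxia target genes, 1 was called, Ndrg1. Over all genes, 1.75% were called in GN, 3.63% in EV+ and 2.84% in EV-, each against control. Ndrg1 read 368 and 402 CPM in control, 474 and 451 in GN, 485, 489 and 512 in EV+, and 476, 475 and 486 in EV-. Ndrg1 was 0.36 ± 0.07 above control in EV+ on the log2 scale (limma adjusted p = 0.0118) and 0.31 ± 0.07 in EV- (limma adjusted p = 0.0338), while its GN difference of 0.27 ± 0.08 did not pass the test (limma adjusted p = 0.142). By the limma estimate, 7 of the 11 were higher than control in GN, 8 in EV+ and 7 in EV-. Higd1a and Ddit4, chosen after their values were seen, were lower than control in GN. Higd1a read 27.2 and 27.7 CPM in control and 17.0 to 27.2 CPM in nephritis, with both control libraries above all others, 1 of them by a narrow margin. Ddit4 read 80.5 and 65.2 CPM in control, 53.0 and 44.0 in GN, and 55.6 to 88.1 in EV+ and EV-. Its means in EV+ (77.2 CPM) and EV- (76.0 CPM) were above its control mean (72.9 CPM). Neither Higd1a nor Ddit4 passed the test in any comparison (limma adjusted p in GN against control 0.518 for Higd1a and 0.281 for Ddit4).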

How the data were processed

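RNA was extracted from sorted splenic macrophages, libraries were made with SMART-Seq v4 and Nextera XT and sequenced in paired-end mode. The authors aligned reads to rn6 with STAR (version 2.5.3), counted them on RefSeq genes with HTSeq (version 0.6.0, intersection-strict), removed genes whose maximum was under 1 CPM and normalized by TMM in edgeR. The deposited table holds this normalized signal, TMM-normalized CPM, which is not divided by gene length, for 9003 genes, 18 of whose symbols had become dates.

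Every deposited value (100%) was a whole number of reads within 0.01. The recovered reads were 19270515 to 26617093 per library. The limit of 3 reads (0.113 to 0.153 CPM) covers counting error only. Groups came from the sample labels. The study states biological replicates without saying how animals map to libraries, so p-values measure the spread between these libraries. Replicate libraries differed by more than sampling noise.

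limma (version 3.58.1, R 4.3.3), with an intensity trend, was fitted to log2(CPM + 1) with 4 group means and 6 residual degrees of freedom, with Benjamini-Hochberg adjustment over all genes and a limit of 0.1. It was tested on simulated data. Alternatives were edgeR (4.0.16) quasi-likelihood and DESeq2 (1.42.0) tests on recovered reads, RLE factors, scaling by total, a pseudocount of 0.1, at least 1 CPM in 2 libraries, no trend, a replicate block, only the groups compared, and each library left out. Same-numbered EV+ and EV- libraries deviated together (residual correlations 0.203, 0.295 and 0.122 across genes), so their numbers were taken as pairs on the data alone. For control and GN the correlation was 0.088, and the numbers were not taken as pairs. Isoenzyme shares were compared by exact permutation tests, unpaired and, as a choice made after seeing the data, paired.

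The genes and lists were chosen with earlier results of these data known. Values in every library are given for genes called in any comparison, Irg1, the gene of highest mean CPM in each list, the 3 largest changes at a mean of at least 5 CPM in GN against control and between the nephritis groups, the hexokinase and lactate dehydrogenase genes, and called genes of the other lists. The succinate dehydrogenase subunits, Slc2a1, Hif1a and Myc are given by range, and some genes of the other lists are not reported here. Promoter windows and names of pseudogene loci came from RefSeq tables of GRCr8. Transcript lengths were not used here. Rankings by CPM and isoenzyme shares, which set genes beside each other, therefore also depend on transcript length.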

Additional observations from a re-analysis of the deposited data

How the results depend on the processing

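The number of called enzyme genes in GN against control was 1, and became 2 (edgeR, pseudocount 0.1, replicate block, only the groups compared), 3 (scaling by library total) or 4 (DESeq2), with Hk3, Eno1 and Pfkp as the added genes, and 0 to 3 with 1 library left out, 0 without GN replicate 1. In EV+ against control the 4 calls became 2 without the trend or with only the groups compared, 6 with DESeq2 or scaling by library total (Pgk1 and Taldo1 being added), and 1 to 6 with 1 library left out, 1 without control replicate 2. In EV- against control the 3 calls became 1 without the trend and 0 to 3 with 1 library left out, 0 without control replicate 2. Across the 4 groups the 3 calls became 4 with DESeq2 (Hk3 being added), 1 without the trend and 1 to 3 with 1 library left out (Irg1 alone without either control, either GN library or EV+ replicate 3). Shares of all genes called under these alternatives are not given here. The counts therefore show how the calls depend on the fit, and are not a result about these enzymes as a group. The cause of these changes was not tested. The 3 comparisons between nephritis groups called no enzyme gene under any alternative run. Irg1 in EV+ against control passed under all 19 alternatives, in GN under 18 of 19 and in EV- under 17 of 19, while Pfkp in EV+ passed under 10 of 19 and Hk3 under 13 of 19.

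With the replicate block, the enzyme genes called in GN against control were 2, Hk3 being added. Across the 4 groups Hk3 took the place of Pfkp. Here the block also joined control and GN libraries by number, although these were not taken as pairs. The block changed no other call of these genes. Taking same-numbered EV+ and EV- libraries as pairs for the isoenzyme shares, a choice made after seeing the data, gave exact permutation p-values of 0.25 to 1 (3 pairs).

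Scaling by library total moved the TCA median to 0.13 in GN and 0.14 in EV- against control, where the median of all genes was 0.04 and 0.05. With 1 library left out, medians against control ranged from 0.0535 to 0.119 (pentose phosphate, GN), 0.0526 to 0.0948 (TCA, GN), 0.0302 to 0.107 (TCA, EV+) and 0.0191 to 0.134 (TCA, EV-). Between nephritis groups the glycolysis medians ranged from 0.00908 to 0.119 (EV+ against GN), -0.0166 to 0.0880 (EV- against GN) and -0.0183 to 0.0989 (EV+ against EV-). The others ranged from -0.0291 to 0.0608 (pentose phosphate, EV- against GN), -0.0315 to 0.0706 (pentose phosphate, EV+ against EV-), -0.0450 to 0.0352 (TCA, EV- against GN) and -0.0378 to 0.0288 (TCA, EV+ against EV-). The difference in isoenzyme share between EV+ and EV- ranged from -0.408 to 0.105 points for Hk2, from 0.587 to 2.29 for Hk3, from -2.48 to -0.618 for Pfkm, from -1.05 to 3.50 for Pfkp and from -0.00929 to 0.0115 for Ldhb. It changed sign without EV+ replicate 2 (Hk2 0.105, Ldhb 0.00532), EV- replicate 3 (Hk2 0.0231), EV+ replicate 3 (Pfkp -0.0929) and EV- replicate 1 (Pfkp -1.05, Ldhb 0.0115). The number of genes with control above all nephritis libraries, whose alternatives were chosen after seeing the data, was 1 to 2 with 1 library left out. It could not fall below 1, because fewer libraries make the order easier to meet. Searching for GCGTG or ACGTG found a match in 55.3% of the enzyme windows, against 63.2% in those of the table. Depth limits Hk2, Pfkm and Ldhb, which had 1 to 73 reads per library.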

Other observations

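Eno3, the enolase known from muscle, was read at 1004 to 1254 CPM, and was looked at after its values were seen. It read 1135 and 1226 CPM in control, 1254 and 1199 in GN, 1098, 1004 and 1116 in EV+, and 1124, 1096 and 1169 in EV-. All EV+ and EV- libraries lay below both GN libraries, by 0.19 (95% interval 0.04 to 0.35) and 0.12 (-0.04 to 0.27) on the log2 scale, and neither difference passed the test (limma adjusted p = 0.624 and 0.751). How the authors' counting treated reads shared between enolase genes or their copies can change this level, and its part was not tested.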
